A study of Ambystoma mexicanum with 5 samples.

Results

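The mitochondrial carrier family, the SLC25A genes, was examined in the kidney of a salamander, the axolotl (Ambystoma mexicanum), from whole-organ RNA. A gene model was taken as a member when its deposited name, in any of its parts, began with SLC25A and it had at least 10 counts over the 5 libraries; SLC25A20 was left out. The rule found 50 members under 39 symbols, out of 100758 gene models in the count table, of which 39937 had a count. Of 56 rows with such a name, 2 belonged to SLC25A20 and 4 were under the count minimum, 3 of these with no count and 1, an SLC25A13 model, with 2 counts. The members nearest the minimum, one named SLC25A43 and one named SLC25A22, had 12 counts each. The kidneys came from 3 untreated animals (control 1, 2 and 3) and 2 animals injured with gentamicin (gentamicin 1 and 3), each library from a different axolotl. Gentamicin is an antibiotic toxic to the kidney tubule. The labels used here name the tissue and the treatment but no strain or age, and the number 14 in the titles of the gentamicin libraries is not explained as a dose or a time. No gentamicin library numbered 2 is analysed here. The deposited table holds read counts per gene, and whole kidney was sequenced, so each value mixes all cell types of the organ.

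Carriers of this family sit mostly in the inner mitochondrial membrane and move metabolites between the cytosol and the mitochondrial matrix, usually by exchanging one substrate for another. ADP/ATP and phosphate carriers feed the ATP synthase and export its product. Others move citrate, dicarboxylates, amino acids, cofactors, nucleotides, glutathione or iron. Kidney tubules are rich in mitochondria, because the transport of salt and solutes consumes ATP, and proximal tubule cells in addition take up and break down metabolites inside mitochondria.

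Depth was 13674201, 15087765 and 14884904 counts for controls 1 to 3, and 15163723 and 16404879 for gentamicin 1 and 3. Levels are given as CPM, counts relative to the library total and scaled with TMM factors (trimmed mean of M-values), and levels of different genes are compared as the authors' FPKM, which also divides by gene length. A count of 3, the limit that a count of 0 allows, was worth 0.156 to 0.244 CPM in a library, which covers counting error only. Libraries of 1 group resembled each other (Spearman correlation of log2 CPM 0.965 to 0.981) more than libraries of different groups (0.881 to 0.903). In edgeR's quasi-likelihood test 22006 genes were tested, and a gene was called at an adjusted p under 0.05 over all of them.

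Carrier transcripts were lower after gentamicin, and 9 of the 10 tested members most abundant in controls fell. Ranking by control FPKM favours genes that fall, so this count is a description only. Together the 50 members took 1.07%, 1.07% and 0.999% of counts in the controls, and 0.565% and 0.549% after gentamicin. Every gentamicin library was thus below every control. Of the 50 members 45 were tested, of which 18 fell and 0 rose. That is 40.0% of the tested members called lower, where 13.4% of all tested genes were called lower and 13.3% higher, or 26.8% in either direction. A decrease of at least 2-fold was called in 15 members, or 33.3%, against 7.75% of all tested genes, and an increase of that size in 0 members, against 7.43%. No member was higher at an unadjusted p under 0.05 or in DESeq2, and under total-count scaling, too, 0 members were called higher and 15 lower. Without control 3 a single member was called higher, SLC25A35.

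The groups did not overlap in 28 of 45 tested members, or 62.2%, always with the gentamicin libraries lower. Among all tested genes 55.3% had no overlap in either direction, so the members' share is near that of all genes. The share of all genes was not split by direction. The median log2 fold change of the tested members was -0.36, beside 0.0075 for all tested genes. It was -0.04 under total-count scaling, which raised the median of all genes by 0.32, and -0.24 for log2(FPKM + 1) without a filter. Changes are therefore relative to the TMM scale. Across the 45 tested members the log2 fold change and the control FPKM had a Spearman correlation of -0.54 and a Pearson correlation of -0.46 on the log2 scale. This describes genes measured in the same 5 libraries, which are not independent, and the control libraries enter both quantities. The 10 most abundant tested members in controls had a median log2 fold change of -1.53, and of the other 35, 9 fell.

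**Figure D1:**
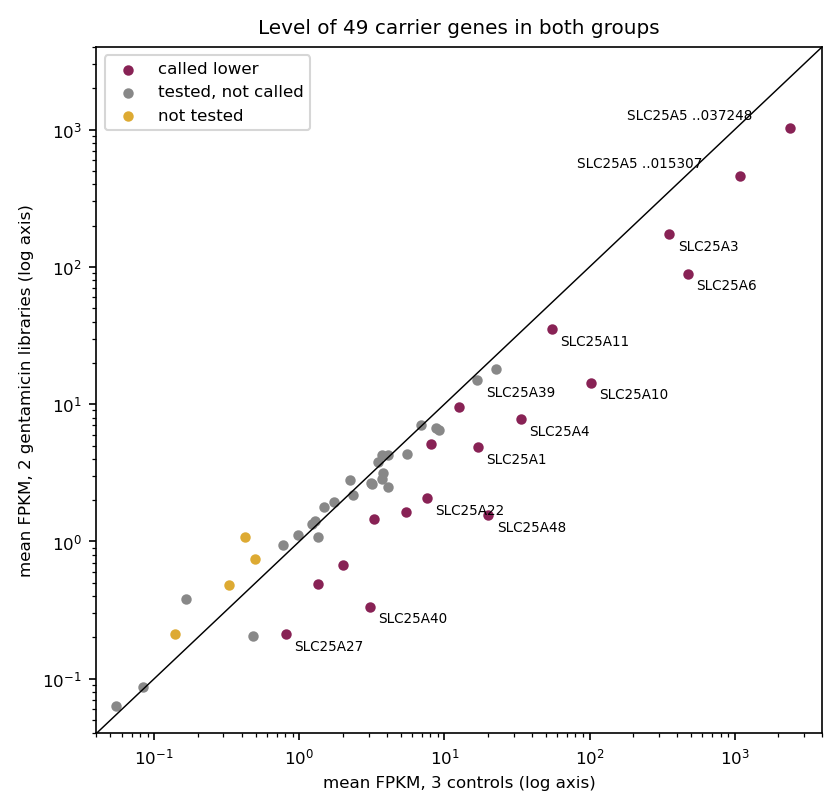
Mean FPKM of 49 members in 3 controls (x axis) and 2 gentamicin libraries (y axis), both on log axes, coloured by the edgeR call; digits after 2 dots are the end of the gene identifier, and 1 SLC25A22 model listed at 0 after gentamicin is not drawn. The abundant members at the upper right lie below the line of equal levels, for example SLC25A10 at 103 and 14.4 FPKM, while many members between 1 and 10 FPKM lie near it.

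All 5 tested genes for ADP/ATP and phosphate carriers fell, beside 13.4% of all tested genes, and they made up most of the members' transcripts. SLC25A5 encodes a widespread ADP/ATP carrier, and its model AMEX60DD037248 (chromosome 5p, 249549264 to 249552963) was the most abundant member. It had 4878, 5288 and 4404 CPM in the controls and 2247 and 1891 CPM after gentamicin. The groups were apart by more than their spread, and the gene fell 2.35-fold (log2 -1.23 ± 0.15, SE; adjusted p = 0.000645 in edgeR's test). A model on chromosome 1p (AMEX60DD015307, 842668059 to 842669052), which also carries the SLC25A5 name, is as long as its genomic span of 994 bases, so the annotation gives it no intron. It had 1281, 1083 and 934 CPM in the controls and 467 and 457 CPM after gentamicin, and fell 2.38-fold (edgeR adjusted p = 0.00073). No source used here states how reads were divided between these copies, so the level of each is uncertain.

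SLC25A6, another ADP/ATP carrier, fell further than the SLC25A5 models. It had 790, 884 and 848 CPM in the controls and 172 and 140 CPM after gentamicin. The groups lay far apart, and the decrease was 5.38-fold (log2 -2.43 ± 0.15, SE; edgeR adjusted p = 1.44e-05). SLC25A4 encodes the ADP/ATP carrier typical of muscle and heart in mammals, and the model that bears its name (AMEX60DD045392) is also named SLC25A5 in the deposited table, so its identity is uncertain. It had 71.6, 46.5 and 63.9 CPM in the controls and 14.5 and 13.3 CPM after gentamicin, and fell 4.36-fold (edgeR adjusted p = 0.000173). SLC25A3, which imports phosphate for ATP synthesis and also carries copper, fell 2.07-fold. Its values were 2791, 2498 and 2458 CPM against 1277 and 1223 CPM (edgeR adjusted p = 0.000655; chromosome 12q, 585666203 to 585685763).

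The balance among the ADP/ATP carriers moved toward SLC25A5. The ratio of SLC25A5 to SLC25A6, as FPKM summed over the models of each symbol, was 8.12, 7.28 and 6.39 in the controls and 15.9 and 17.3 after gentamicin. Both gentamicin values were above all control values, and the mean ratio was 2.30-fold higher. The two-sided exact permutation test gave p = 0.2, which is the smallest that 3 against 2 libraries allow (adjusted p = 0.26 over 13 pairs of related carriers). The ratio of SLC25A4 to SLC25A6 overlapped between groups (exact permutation p = 0.4). ADP/ATP carriers held 84.8% ± 1.12 of the members' summed FPKM in controls (SD, n = 3) and 81.7% ± 1.29 after gentamicin (n = 2). The phosphate carrier held 7.58% ± 0.467 and 8.97% ± 0.411.

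**Figure D2:**
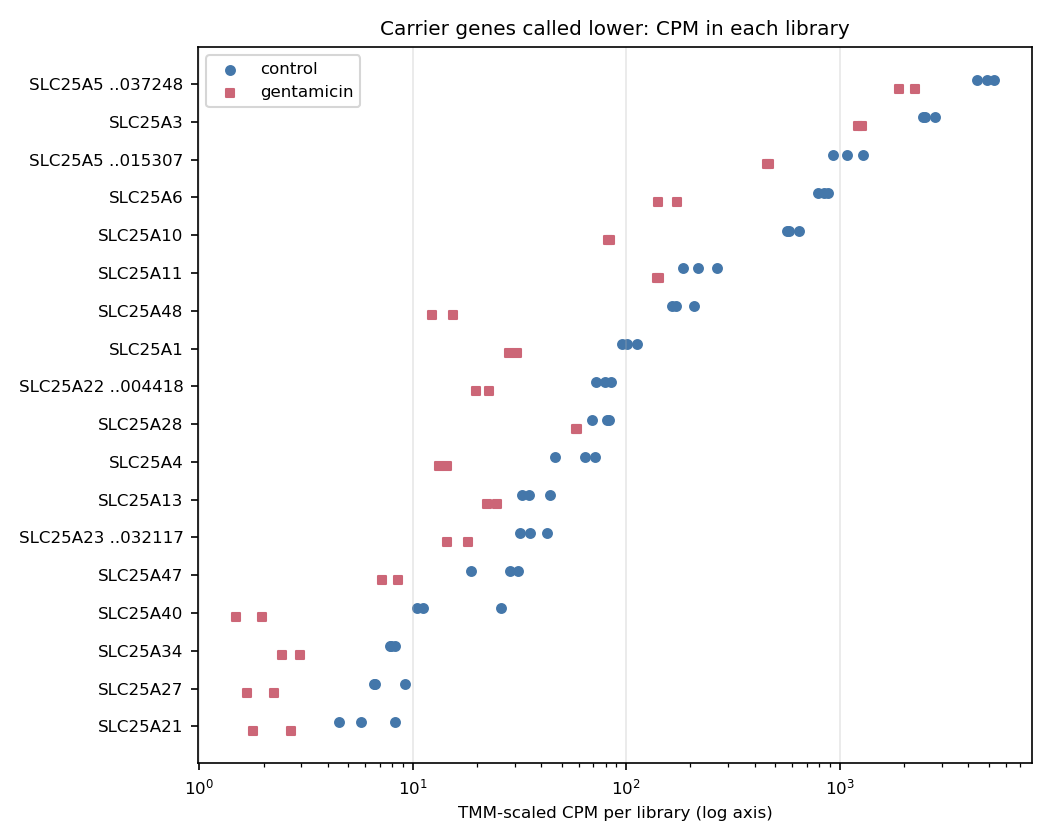
TMM-scaled CPM (log axis) of the 18 members called lower, 1 point per library, circles for 3 controls and squares for 2 gentamicin libraries. For each of the 18 the squares lie left of all circles; the gap is widest for SLC25A48 (164 to 207 against 12.3 to 15.5 CPM) and narrow for SLC25A28 (69.4 to 83.1 against 58.3 to 59.1 CPM).

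All 4 carriers of citrate, dicarboxylates and oxoacids fell, by different amounts, beside 13.4% of all tested genes called lower. SLC25A10, the dicarboxylate carrier, exchanges malate and succinate for phosphate or sulfur anions and is abundant in mammalian kidney and liver. It had 645, 576 and 568 CPM in the controls and 82.3 and 83.8 CPM after gentamicin, a decrease of 7.18-fold (log2 -2.84 ± 0.13, SE; edgeR adjusted p = 4.52e-06; chromosome 3q, 1306212885 to 1306650559). Both groups were narrow, and the smallest control value was 568 CPM. SLC25A1 exports citrate, whose carbon is used for fatty acid and sterol synthesis. It had 101, 113 and 95.4 CPM in the controls and 30.8 and 28.1 CPM after gentamicin, and fell 3.50-fold (edgeR adjusted p = 3.43e-05). SLC25A21, which imports 2-oxoadipate from the breakdown of lysine and tryptophan, was weak, with 8.22, 4.51 and 5.71 CPM against 1.78 and 2.70 CPM. It fell 2.72-fold (edgeR adjusted p = 0.0178). Leaving out gentamicin 1 (0.147) or gentamicin 3 (0.0594) ended this call, as did log2(FPKM + 1) with and without a filter (0.0551 and 0.118).

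SLC25A11, which exchanges 2-oxoglutarate for malate in the malate-aspartate shuttle, fell less. It had 184, 217 and 265 CPM in the controls and 140 and 143 CPM after gentamicin, or 1.57-fold lower (log2 -0.65 ± 0.16, SE; edgeR adjusted p = 0.019). The call was lost without gentamicin 1 (0.133) or gentamicin 3 (0.12), with total-count scaling (0.161) and on unfiltered FPKM (0.0956). In controls SLC25A10 had the higher FPKM of the pair, with SLC25A10 to SLC25A11 ratios of 2.43, 1.84 and 1.48. After gentamicin the order was reversed, with ratios of 0.408 and 0.406, a change of -2.21 on the log2 scale (exact permutation p = 0.2, the smallest possible).

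Among carriers of amino acids and related compounds, 3 of 9 tested genes fell, beside 13.4% of all tested genes. The others did not pass the test. SLC25A48, linked in mammals to choline import into mitochondria, had the largest fold decrease of the 45 tested members. It had 207, 164 and 171 CPM in the controls and 15.5 and 12.3 CPM after gentamicin, a decrease of 13.0-fold (log2 -3.70 ± 0.18, SE; edgeR adjusted p = 5.00e-06; chromosome 3q, 213331041 to 213623265). Its place by FPKM among the 50 members went from 9 in controls to 31 after gentamicin. SLC25A22 carries glutamate with a proton into the matrix. Its main model, AMEX60DD004418, had 79.4, 72.3 and 84.5 CPM against 19.9 and 22.7 CPM, and fell 3.70-fold (edgeR adjusted p = 3.31e-05). A second model of that name had 12 counts in controls and 0 after gentamicin and was not tested.

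SLC25A18, the other glutamate carrier, did not follow SLC25A22. It had 21.6, 16.1 and 18.1 CPM in the controls and 18.8 and 21.1 CPM after gentamicin, with overlapping groups (log2 0.10 ± 0.17, SE; edgeR adjusted p = 0.696). The ratio of SLC25A22 to SLC25A18, as FPKM, was 1.92, 2.32 and 2.39 in the controls and 0.543 and 0.552 after gentamicin. SLC25A22 was thus the more abundant of the pair in every control and the less abundant in both gentamicin libraries (log2 difference -2.01; exact permutation p = 0.2, the smallest possible).

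The aspartate/glutamate exchangers, which complete the malate-aspartate shuttle and are regulated by calcium, had decreases of less than 2-fold. SLC25A13, or citrin, had 44.0, 32.5 and 34.9 CPM against 22.2 and 24.9 CPM and fell 1.57-fold (edgeR adjusted p = 0.0191). The call ended when gentamicin 1 (0.157) or gentamicin 3 (0.0875) was left out, with total-count scaling (0.153) and on unfiltered FPKM (0.0995). SLC25A12, or aralar, had a pair of models on chromosome 9q, which may share reads. The longer, AMEX60DD055666, stood at 58.9, 39.6 and 38.9 CPM in controls and 28.3 and 36.5 CPM after gentamicin (edgeR adjusted p = 0.137), and passed without a filter on low counts (0.0112). The shorter, AMEX60DD054586, annotated without an intron, had 29.3, 36.2 and 40.2 CPM against 28.1 and 27.9 CPM (edgeR adjusted p = 0.157), and passed without control 1 (0.0399).

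The remaining amino acid carriers had small differences. SLC25A29, for basic amino acids, had 16.9, 15.9 and 13.1 CPM in controls and 12.1 and 11.7 CPM after gentamicin (edgeR adjusted p = 0.161). SLC25A38, which supplies glycine for heme synthesis, stood at 3.26 ± 0.775 and 2.64 ± 1.04 CPM (SD, n = 3 and 2; edgeR adjusted p = 0.595). SLC25A15 exchanges ornithine and citrulline in the urea cycle. Its model AMEX60DD049140 stood at 4.51 ± 1.68 and 5.10 ± 2.42 CPM (edgeR adjusted p = 0.779), and a second model, with 13 counts in controls and 19 after gentamicin, was not tested.

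**Figure D3:**
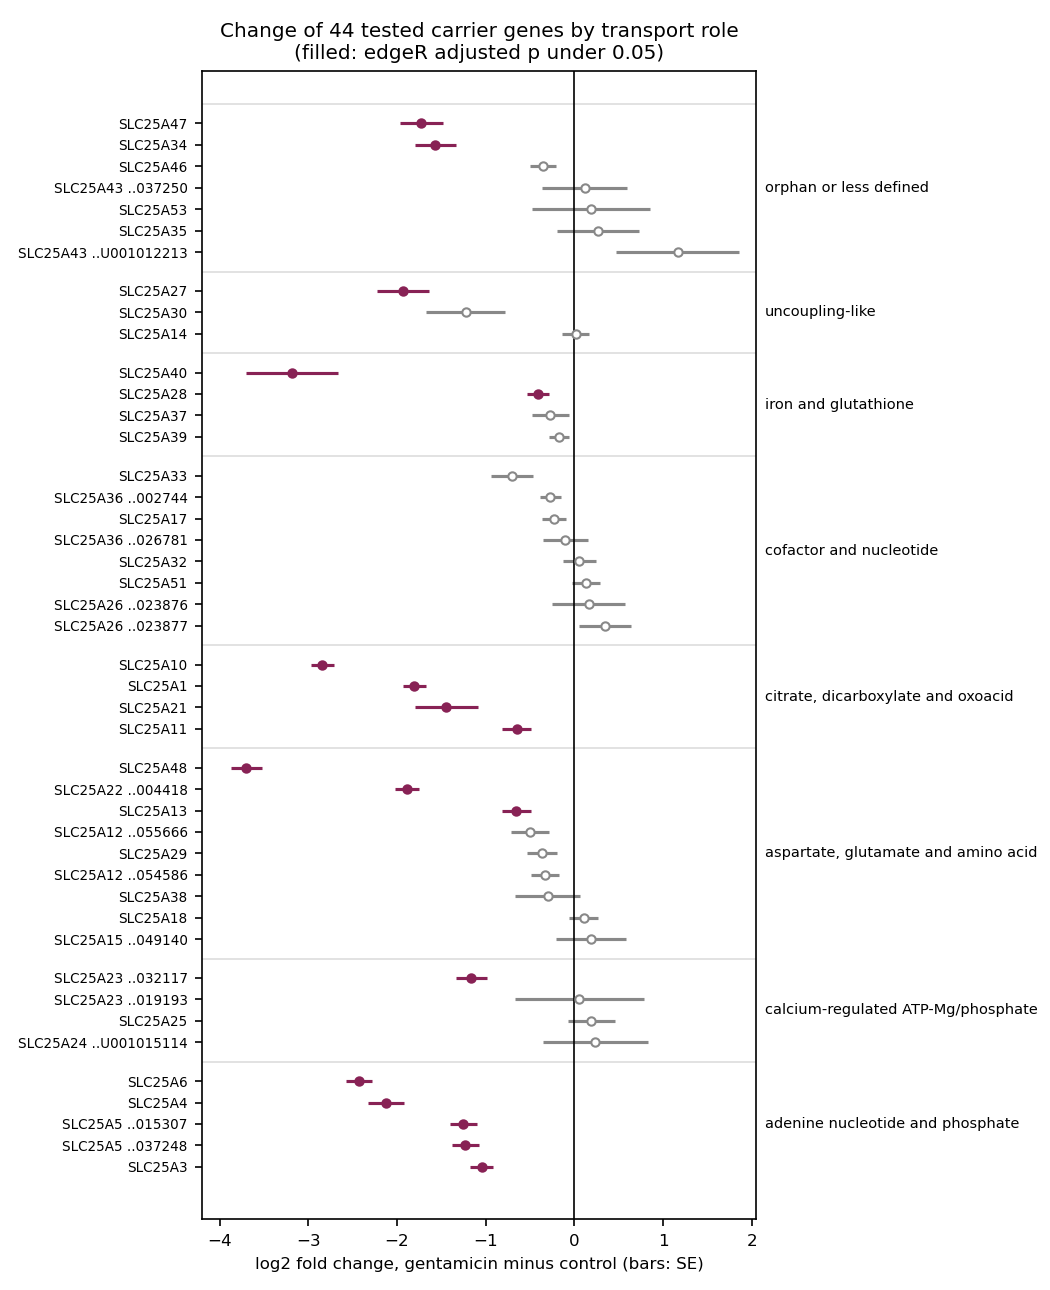
Log2 fold change with its SE (x axis) of 44 of the 45 tested members, grouped by transport role; filled points passed the edgeR test. The ADP/ATP and phosphate carriers and the citrate, dicarboxylate and oxoacid carriers all lie left of 0, and the cofactor and nucleotide carriers lie around 0; 6 members drawn left of 0 and not called move right of it under total-count scaling.

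Of the calcium-regulated carriers that exchange ATP-Mg for phosphate and so set the adenine nucleotide pool of the matrix, 1 of 4 tested models fell. Over all tested genes 13.4% were called lower, and 4 models are too few to be set against that share. SLC25A23 (AMEX60DD032117) had 31.7, 35.4 and 42.6 CPM in the controls and 14.5 and 18.2 CPM after gentamicin, a decrease of 2.24-fold (edgeR adjusted p = 0.00193). SLC25A25 had 18.6, 14.4 and 27.6 CPM against 25.5 and 20.6 CPM, with overlapping groups (log2 0.19 ± 0.27, SE; edgeR adjusted p = 0.654). The ratio of SLC25A23 to SLC25A25, as FPKM, was 0.766 to 1.23 in controls and 0.281 and 0.462 after gentamicin (exact permutation p = 0.2, the smallest possible). SLC25A24 was weak in all libraries: its model on an unplaced contig stood at 1.30, 1.96 and 3.61 CPM in controls and 4.16 and 1.30 CPM after gentamicin (edgeR adjusted p = 0.811). A second SLC25A24 model had 13 counts in controls and 29 after gentamicin and was not tested, and a second SLC25A23 model had 24 and 23 (edgeR adjusted p = 0.968).

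The glutathione carriers differed from each other. SLC25A39 and SLC25A40 import glutathione into mitochondria in mammalian cells. SLC25A39, the more abundant, had 197, 173 and 196 CPM in the controls and 166 and 168 CPM after gentamicin (log2 -0.17 ± 0.11, SE; edgeR adjusted p = 0.307), and with total-count scaling its log2 fold change was 0.15. SLC25A40 had 26.0, 11.2 and 10.5 CPM against 1.49 and 1.98 CPM. Control 1 was well above the other controls, and every control was above both gentamicin libraries. The decrease was 9.09-fold (log2 -3.18 ± 0.51, SE; edgeR adjusted p = 0.00561). This call ended when gentamicin 1 (0.0726) or gentamicin 3 (0.0607) was left out and on unfiltered FPKM (0.0597). The ratio of SLC25A39 to SLC25A40, as FPKM, was 3.50, 7.15 and 8.68 in the controls and 51.7 and 39.4 after gentamicin (exact permutation p = 0.2, the smallest possible).

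The mitoferrins, which import iron for heme and iron-sulfur clusters, differed by less than 2-fold between groups. SLC25A28, mitoferrin-2, had 83.1, 69.4 and 81.3 CPM in the controls and 59.1 and 58.3 CPM after gentamicin, and fell 1.33-fold (edgeR adjusted p = 0.04). This call was the weakest of the 18. It was lost without control 1 (0.0737), control 3 (0.0764), gentamicin 1 (0.178) or gentamicin 3 (0.199), with total-count scaling (0.613) and in the FPKM fits (0.0599 to 0.121). SLC25A37, mitoferrin-1, is the form of developing red cells in vertebrates. It had 39.6, 34.0 and 55.6 CPM against 33.6 and 37.8 CPM, with overlapping groups (edgeR adjusted p = 0.391). Red cell genes of the marker list summed to 878, 949 and 1388 CPM in controls and 961 and 922 CPM after gentamicin. Of their 12 tested models 3 were higher and 1 lower, which is near the 26.8% of all tested genes called in either direction. Control 3 was the highest control for SLC25A37 and for the red cell sum. The part of red cells in the SLC25A37 level was not tested.

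Of the carriers resembling uncoupling proteins, which are relatives of the proton-leak protein of brown fat, SLC25A27 fell. It had 6.67, 6.62 and 9.18 CPM in the controls and 1.67 and 2.24 CPM after gentamicin, or 3.82-fold lower (edgeR adjusted p = 0.00188). On unfiltered FPKM it missed the threshold (0.0545). A gene model on the opposite strand overlaps it and holds at least 10% of its counts, and without a stated strand setting their reads cannot be told apart. SLC25A30, named kidney mitochondrial carrier protein 1 in the deposited description, had 3.17, 2.91 and 2.10 CPM against 1.61 and 0.728 CPM (log2 -1.23 ± 0.45, SE; edgeR adjusted p = 0.0799). SLC25A14 had 33.6, 36.1 and 35.9 CPM against 30.3 and 40.9 CPM (edgeR adjusted p = 0.954), so its gentamicin libraries lay on both sides of the controls.

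None of the 9 tested models for carriers of cofactors and nucleotides was called, beside 26.8% of all tested genes, and their median log2 fold change was -0.10. SLC25A33, which carries pyrimidine nucleotides, came nearest, with 13.6, 11.0 and 18.4 CPM in the controls and 9.16 and 8.48 CPM after gentamicin (log2 -0.70 ± 0.24, SE; edgeR adjusted p = 0.0622). It passed in DESeq2 (adjusted p = 0.0473), without a filter on low counts (0.0108), without control 2 (0.026) and with the replicate block (0.0478). The related SLC25A36 had 48.1, 50.6 and 44.6 CPM in controls and 40.0 and 39.2 CPM after gentamicin in its main model (edgeR adjusted p = 0.127). Its second tested model stood at 6.41 ± 1.43 and 5.98 ± 0.214 CPM (SD, n = 3 and 2, edgeR adjusted p = 0.813). Another, with 13 counts in controls and 17 after gentamicin, was not tested.

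Carriers of single cofactors stood close to their control levels. SLC25A32, for folate and FAD, had 15.3, 13.2 and 15.6 CPM in controls and 12.9 and 17.6 CPM after gentamicin (edgeR adjusted p = 0.864). The neighbouring gene DCAF13 overlaps it on the other strand, and their reads may be mixed. SLC25A51, which imports NAD, had 14.7, 13.9 and 12.1 CPM against 14.2 and 15.5 CPM (edgeR adjusted p = 0.598). SLC25A17, a peroxisomal carrier of cofactors, stood at 24.7 ± 2.12 and 21.1 ± 0.0817 CPM (SD, n = 3 and 2; edgeR adjusted p = 0.256). The SLC25A26 models, for S-adenosylmethionine, lie side by side on chromosome 2q and had log2 fold changes of 0.34 ± 0.29 and 0.16 ± 0.41 (SE; edgeR adjusted p = 0.442 and 0.817).

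Among 7 tested carriers with a less settled substrate, SLC25A47 and SLC25A34 fell, beside 13.4% of all tested genes. SLC25A47, a liver carrier in mammals, had 31.1, 28.4 and 18.8 CPM in the controls and 7.20 and 8.53 CPM after gentamicin, or 3.31-fold lower (edgeR adjusted p = 0.00135). It lies beside SLC25A29 on chromosome 14p, which did not pass the test. SLC25A34 had 8.30, 7.85 and 7.95 CPM against 2.97 and 2.44 CPM and fell 2.96-fold (edgeR adjusted p = 0.00177). SLC25A35 had 8.14 and 9.82 CPM in controls 1 and 2 but 22.7 CPM in control 3, and 14.5 and 18.2 CPM after gentamicin (edgeR adjusted p = 0.73). Without control 3 it was called higher (log2 0.84; adjusted p = 0.0256). SLC25A46, an outer membrane protein of mitochondrial dynamics, stood at 24.6 ± 2.35 and 19.3 ± 1.75 CPM (SD, n = 3 and 2; edgeR adjusted p = 0.113). SLC25A53 (edgeR adjusted p = 0.871) and the SLC25A43 models were below 2 CPM in every library. Of the SLC25A43 models, AMEX60DD037250 and AMEX60DDU001012213 were tested (edgeR adjusted p = 0.891 and 0.26), and the other had 5 counts in controls and 7 after gentamicin.

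**Figure D4:**
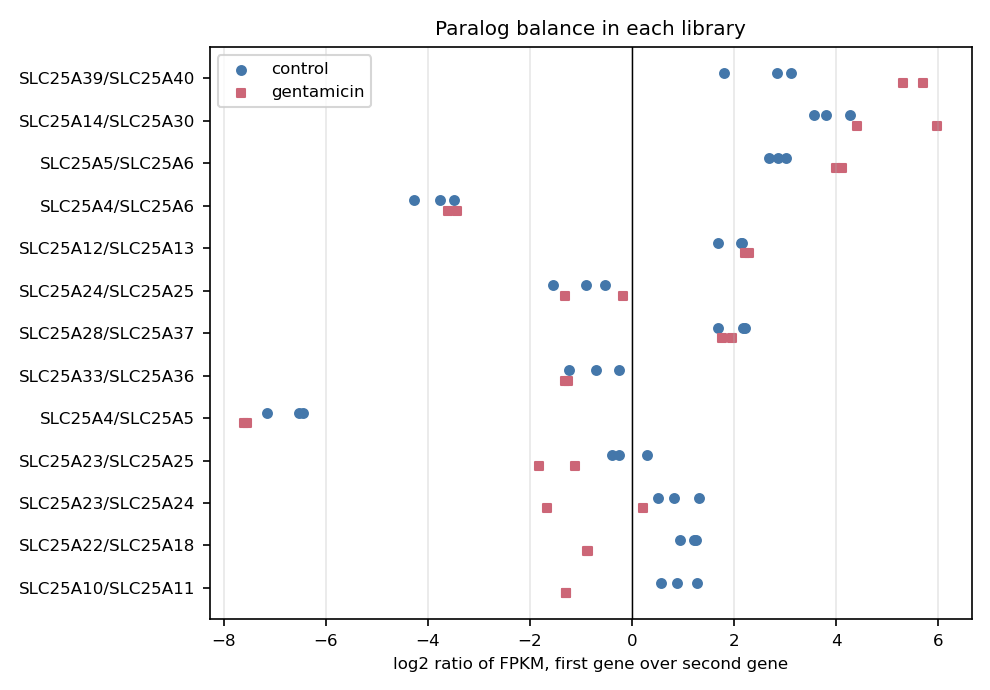
Log2 ratio of FPKM (x axis) of the first gene over the second for 13 pairs of related carriers, 1 point per library, circles for controls and squares for gentamicin. SLC25A22/SLC25A18 and SLC25A10/SLC25A11 cross from right to left of 0, and SLC25A28/SLC25A37 overlaps between groups.

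The members shared few annotated features beyond the name. The mitochondrial carrier domain is annotated for 22 of 50 members in the deposited table. Gene lengths ran from 386 to 17115 bases, 3 members had no annotated intron, 3 lay on unplaced contigs, and 9 symbols had more than 1 member. Another gene model overlapped the span of 16 members, and in 3 of them it held at least 10% of the member's counts.

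A list of carrier relatives under other names held the uncoupling proteins UCP1 to UCP3 and the insertion factors MTCH1 and MTCH2. All 6 tested models were called lower, against 13.4% of all tested genes. The UCP2 model AMEX60DD049794 and AMEX60DD044953 are described as solute carrier family proteins. They are carriers of the family by description, and were left out of the members only by name. Some of these calls rest on few counts. The UCP1 model AMEX60DDU001034745 had 33 counts over the controls and the UCP3 model 24, and both had 0 after gentamicin (edgeR adjusted p = 0.00738 and 0.0467). UCP2, an uncoupling protein, fell from 1458 ± 441 to 499 ± 36.0 CPM (SD, n = 3 and 2; edgeR adjusted p = 0.00392). Its mean of 205 FPKM in controls is not part of the family shares given above, which cover only models named SLC25A. MTCH2, which inserts proteins into the outer membrane, fell from 169 ± 2.28 to 102 ± 4.61 CPM (edgeR adjusted p = 0.00149). Other routes through the mitochondrial membranes had 9 of 17 tested models lower and 0 higher, where 13.4% and 13.3% of all tested genes were. Their median log2 fold change was -0.49. Among them the pyruvate carrier subunit MPC1 fell from 263 ± 71.7 to 133 ± 11.2 CPM and the outer membrane channel VDAC2, in its main model AMEX60DD052195, from 1217 ± 9.79 to 822 ± 41.1 CPM (edgeR adjusted p = 0.0156 and 0.00829).

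Of the import machinery that delivers carriers to the inner membrane, 3 of 14 tested models fell and 1 rose, with a median log2 fold change of -0.14. Over all tested genes 26.8% were called in either direction, so this count is near the background. The receptor TOMM70, which recognises carrier precursors, fell from 211 ± 10.9 to 152 ± 3.20 CPM (edgeR adjusted p = 0.0138), TIMM10, a chaperone of the intermembrane space, rose from 28.4 ± 4.12 to 40.8 ± 0.572 CPM (0.0306), and TIMM22, which forms the insertion channel, stood at 24.0 ± 1.25 and 23.8 ± 2.06 CPM (0.974).

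Genes for other mitochondrial proteins gave a measure of mitochondrial content. In a list of matrix enzymes, chaperones and inner membrane proteins 14 of 26 tested models fell and 0 rose, beside 13.4% and 13.3% of all tested genes. The list had a median log2 fold change of -0.42 and summed to 7635, 7624 and 7287 CPM in controls against 4287 and 4405 CPM. Citrate synthase, CS, fell from 684 ± 20.9 to 451 ± 0.411 CPM (edgeR adjusted p = 0.00538). The chaperonin HSPD1 had 478, 342 and 482 CPM in controls and 413 and 422 CPM after gentamicin (0.843). The carrier family summed to 11884, 11702 and 10739 CPM in controls and 5098 and 4683 CPM after gentamicin. Of enzymes that use the shuttled metabolites, 10 of 12 tested models fell and 2 rose, where 13.4% of all tested genes were called lower and 13.3% higher. MDH1, MDH2, GLUD1 and ASS1 each entered with more than 1 model. The aminotransferases are missing from this count: no model was named GOT2, and the GOT1 model had 0 counts in every library. No model was named CPS1. The glutamate dehydrogenase model AMEX60DD051983, GLUD1, fell from 842 ± 73.1 to 229 ± 23.6 CPM, and the arginases ARG1 and ARG2 rose from 12.7 ± 6.10 to 55.9 ± 20.6 and from 9.16 ± 0.832 to 18.2 ± 3.22 CPM (edgeR adjusted p = 4.54e-05, 0.0212 and 0.00481).

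**Figure D5:**
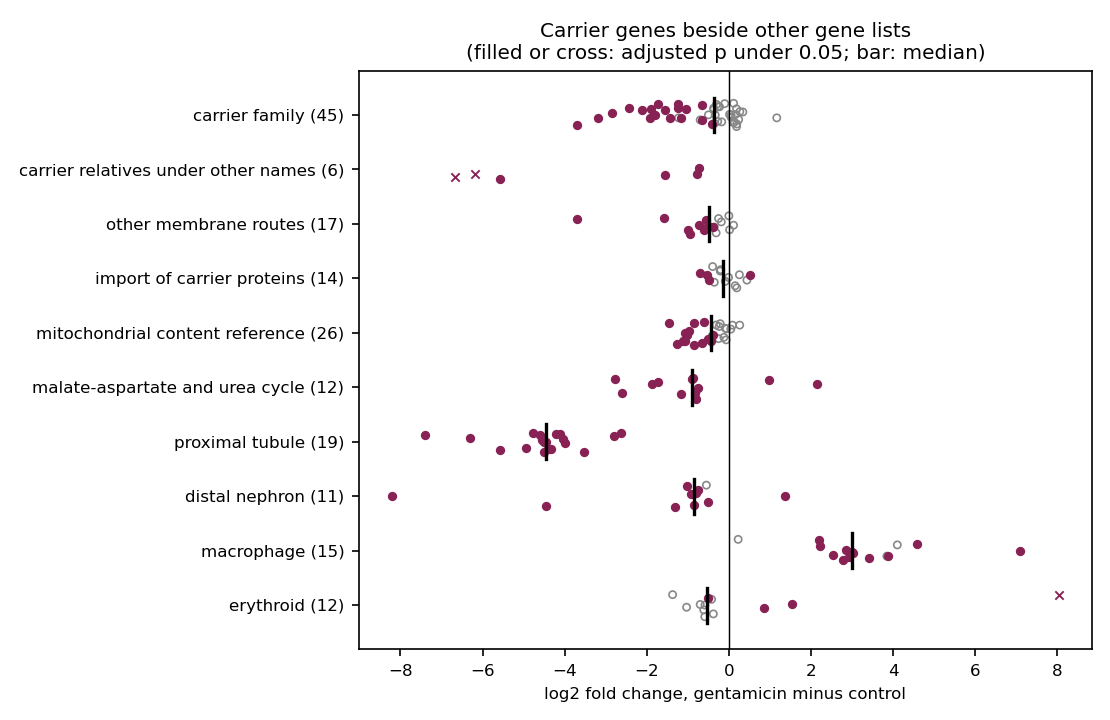
Log2 fold change (x axis) of tested gene models in the carrier family and 9 other lists, the number tested in brackets; filled points and crosses passed the edgeR test, crosses are fitted values of genes with 0 counts in 1 group, and bars are medians, left out for the relatives, where 2 models have 0 counts. The carrier family's median of -0.36 lies between the import list at -0.14 and the mitochondrial content list at -0.42, and the proximal tubule list lies far lower at -4.45.

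Most tested models of both tubule lists fell, and most of the macrophage list rose. Of all tested genes 13.4% were called lower and 13.3% higher, or 26.8% in either direction. The podocyte and fibroblast counts given below are near these shares. All 19 tested models of the 12 proximal tubule markers fell, and the list summed to 10647, 10167 and 8681 CPM in controls and 372 and 395 CPM after gentamicin. None of the 12 markers was at 0 after gentamicin; megalin, LRP2, stood at 1544 ± 319 and 97.7 ± 8.82 CPM in its main model. Distal nephron markers had 9 of 11 tested models lower and 1 higher, and summed to 9441 to 11086 CPM and to 4849 and 5466 CPM. FXYD2 alone held 6802, 5713 and 5210 CPM of this sum in controls and 2281 and 2474 CPM after gentamicin. The called decreases in this list differed in size, with SLC12A1 1.43-fold lower and CLDN10, in its main model, 21.9-fold lower. The SCNN1A model AMEX60DD051246 fell most, from 423 counts over the controls to 1 after gentamicin (edgeR adjusted p = 0.000199). The main SCNN1A model, AMEX60DDU001000376, was not called (edgeR adjusted p = 0.0576). Macrophage markers had 12 of 15 tested models higher and 0 lower, and summed to 221 to 291 CPM and to 2182 and 1793 CPM; CD163 was at 0 in every library. Podocyte markers, with 2 of 10 tested models higher and 1 lower, summed to 556 to 612 CPM in controls and 591 and 562 CPM after gentamicin, and endothelial markers, with 0 of 10 called, to 341 to 450 CPM and to 346 and 391 CPM. Interrenal and chromaffin markers had 6 of 8 tested models lower and 1 higher, and summed to 573 to 713 CPM in controls and 309 and 411 CPM after gentamicin. Among other blood cells, 2 of 3 granulocyte, 3 of 7 T and NK cell and 3 of 5 B and plasma cell models were higher and 0 were lower. Fibroblast markers had 1 of 8 tested models higher and 0 lower, and the 1 tested muscle model was not called. In whole kidney, fewer cells of a type and less RNA per cell cannot be told apart, and the part of these cell types in the carrier changes was not tested.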

How the data were processed

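Whole-kidney RNA of 5 axolotls was sequenced, 3 untreated and 2 given gentamicin; per the labels' protocols, TRIzol was used for extraction and an NEBNext Ultra kit for the libraries. Tools listed in the submitters' processing notes are HISAT2 2.0.5, featureCounts 1.5.0-p3, fastp, CASAVA 2.19 and DESeq2 1.20.0. No source used here gives the genome build, the strand setting or the handling of reads with several matches, and coordinates are printed as deposited. The names of the deposited tables are exchanged: the one named for FPKM holds whole-number counts with unequal totals, and the one named for counts holds the authors' FPKM, each value equal within 0.1% to count over length and total times 1 factor per library (1.0943, 1.0735, 1.0453, 0.8835 and 0.8387).

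Counts were fitted with edgeR 4.0.16 in R 4.3.3 (filterByExpr with minimum count 10 and total 15, TMM, robust quasi-likelihood test, two-sided, group as the only term, Benjamini-Hochberg over all 22006 tested genes). The SE is the log2 fold change over the root of F. CPM of each library use TMM-scaled library sizes, and ± is the SD. Ratios of related carriers were compared by exact permutation over libraries. The fit was tested on simulated data, where fold changes were recovered but unchanged genes made up more of the calls than the threshold allows. Calls near the threshold may thus be less certain than their adjusted p states. Far fewer genes were changed in the simulation than the 5890 called here, so its share of wrong calls is not an estimate for these calls. Members, lists and pairs were chosen with earlier results of these data known. Members were named with every library's value when called with at least a 2-fold change, among the 10 highest by FPKM or the main model of a paired symbol. Others follow their role. Alternatives were DESeq2 1.42.0, limma 3.58.1 (voom, and log2 FPKM with pseudocounts 1 and 0.1), other scalings and filters, the replicate number as a block, and each library left out. The labels share the numbers 1 and 3 between groups. The values of 1 tested member are not reported here; it stays in the family counts and medians.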

Additional observations from a re-analysis of the deposited data

How the results depend on the processing

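The number of members called lower, 18, stayed between 12 and 20 in all 16 alternative fits, and 12 members were called lower in each fit that tested them: both SLC25A5 models, SLC25A6, SLC25A4, SLC25A3, SLC25A10, SLC25A1, SLC25A48, SLC25A22, SLC25A47, SLC25A23 and SLC25A34. With 1 library left out the number was 13 to 19, the lowest without gentamicin 1 or gentamicin 3, and 0 to 1 members were called higher. Over all genes, 2931 were called higher and 2959 lower, 6192 and 1895 with total-count scaling, 1796 and 1828 on unfiltered FPKM, and 1333 to 2770 and 1627 to 2963 with 1 library left out. The members' median log2 fold change of -0.36 was -0.30 and -0.24 on log2(FPKM + 1) with and without a filter, -0.042 with total-count scaling and -0.42 to -0.37 with 1 library left out. The fall of 0.487 percentage points in the family's share of counts, a difference of -0.487, was -0.44 with the most counted model per symbol, -0.631 as a share of summed FPKM and -0.51 to -0.476 with 1 library left out.

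Changes of sign occurred in members that had not passed the test and in 1 pair, and the cause was not tested. No pair could pass, because the smallest possible exact permutation p is 0.2. With total-count scaling the log2 fold change was 0.15 for SLC25A39, 0.050 and 0.22 for SLC25A36 models AMEX60DD002744 and AMEX60DD026781, 0.048 for SLC25A37, 0.092 for SLC25A17 and 0.027 for SLC25A38. In limma-voom it was -0.20 for SLC25A23 model AMEX60DD019193 and -0.20 for SLC25A53. With the replicate block it was -0.031 for SLC25A32, 0.062 for SLC25A36 AMEX60DD026781, -0.023 for SLC25A15, -0.020 for SLC25A23 AMEX60DD019193 and -0.069 for SLC25A53. Leaving out 1 library gave -0.22 to 0.22 for SLC25A14, -0.19 to 0.26 for SLC25A32, -0.011 to 0.47 for SLC25A25, -0.0016 to 0.21 for SLC25A18, -0.29 to 0.034 for SLC25A36 AMEX60DD026781, -0.12 to 0.49 for SLC25A26 AMEX60DD023876, -0.81 to 0.86 for SLC25A24, -0.78 to 0.052 for SLC25A38, -0.073 to 0.35 for SLC25A43 AMEX60DD037250, -0.41 to 0.60 for SLC25A15, -1.29 to 0.72 for SLC25A23 AMEX60DD019193 and -1.17 to 0.89 for SLC25A53. The log2 difference in the SLC25A24/SLC25A25 ratio was -0.089 with the most counted model per symbol and -0.33 to 0.82 with 1 library left out.

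With the replicate number as a block 19 members were called lower, SLC25A33 in addition. Deviations of same-numbered libraries from their group means correlated at -0.041 and 0.061. The 2 gentamicin libraries deviate from their mean by equal and opposite amounts, so these values are not separate evidence. They can neither show nor exclude pairing. With 2 gentamicin libraries, leaving out either leaves a lone library assumed to vary like the controls. Tested members with a control mean below 3 CPM had SEs of 0.41 to 0.73 on the log2 scale, and none of them was called.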

Other observations

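Some gene models have a protein description from solute carrier family 25 but no SLC25A name, and so were not members; they were looked up after the members' values were seen. A gene model without a name, described as solute carrier family 25 member 45, had a mean of 7.01 ± 1.07 FPKM in controls and 0.756 ± 0.0534 after gentamicin (SD, n = 3 and 2). It was 9.27-fold lower (edgeR adjusted p = 3.31e-05). A model described as the coenzyme A transporter SLC25A42 had 0.844 ± 0.2 and 0.648 ± 0.0552 FPKM (edgeR adjusted p = 0.286). AMEX60DD044953, named UCP1 and UCP3, is 1 of the 6 tested relatives already counted above. It was 47.9-fold lower, with 7 counts after gentamicin (edgeR adjusted p = 0.000143).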
